A study of Mus musculus with 2 samples.

Results

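Foxp3-detected T cells were taken from the 2 single-cell libraries of mouse colorectal tumours, 223 cells in all. They were chosen by thresholds on the cells' own counts. A barcode had to hold at least 500 genes, at least 1000 unique molecular identifiers (UMIs) and at most 25% mitochondrial UMIs. A T cell gate then asked for at least 3 UMIs of Cd3d, Cd3e, Cd3g, Trac and Trbc2 together, at least 4 of these per 10000 UMIs, and fewer than 5 UMIs of Cd79a and Lyz2 per 10000. Members were the gated cells with at least 1 Foxp3 UMI, and the gated cells with no Foxp3 UMI are called other T cells here. The gate held 309 T cells in the WT library and 382 in the cKO library, of which 113 and 110 were members. These came from 5170 and 4084 barcodes that passed the filters, out of 9445 and 6723 in the matrices.

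WT is the library of mice with the genotype Mtch2fl/fl, whose Mtch2 alleles are floxed and for which no Cre is named. cKO is the library of Mtch2fl/fl VilCre mice, in which the Villin promoter drives Cre in the intestinal epithelium, so T cells of both libraries are meant to keep the floxed alleles. All mice received AOM-DSS, the carcinogen azoxymethane with the colitis-inducing agent dextran sulfate sodium, and the number and age of the mice were not used here. Tumours of each genotype were pooled and dissociated with trypsin before droplet capture, so each genotype is 1 library and no test between genotypes was possible. Every interval below is a 95% interval that covers counting error only. Levels are UMIs per 1000000 (CPM) summed over the cells of a group, and ratios are log2 after adding 0.5 counts.

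Regulatory T cells hold other immune cells in check. The transcription factor Foxp3 fixes their identity, and they act through the checkpoint receptor Ctla4, through capture of interleukin 2 by Il2ra, and through inhibitory cytokines such as interleukin 10 and activated TGF-beta. In the colon, those formed in the thymus are marked by Helios (Ikzf2) and often by Gata3 and the interleukin 33 receptor (Il1rl1), whereas those induced by the microbiota carry Maf and make interleukin 10.

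Foxp3 lies on chromosome X at 7573644 to 7595245 (mm10, plus strand), where its annotated span overlaps Ccdc22 and Ppp1r3f. Members held 426 Foxp3 UMIs in WT and 332 in cKO, a level of 451 CPM (409 to 496) and 378 CPM (338 to 420.5). A single Foxp3 UMI was the basis of membership in 26 WT and 30 cKO cells, 2 UMIs in 26 and 26, and 3 or more in 61 and 54, with maxima of 15 and 13. Most members therefore carried more than the 1 UMI that the rule asked for, as the plot of Foxp3 UMIs per cell shows. At the edge of the gate, 13 WT and 6 cKO cells had exactly 3 UMIs of the T cell genes, 3 and 1 of them with Foxp3, and 21 and 8 barcodes that met the other criteria had 2 such UMIs, 1 and 0 of them with Foxp3.

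**Figure D1:**
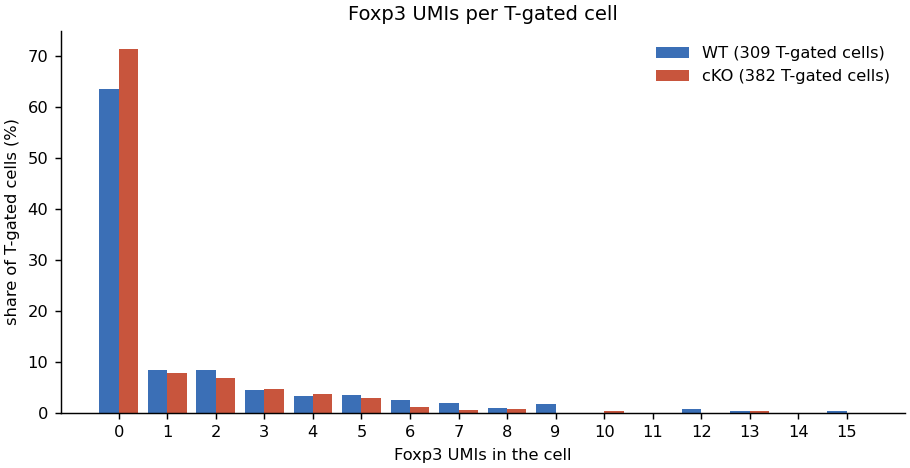
Share of T-gated cells (y axis, percent) by the number of Foxp3 UMIs in the cell (x axis), with bars for WT (309 cells) and cKO (382 cells). Cells at 0 are the other T cells; members extend from 1 to 15 UMIs in WT and to 13 in cKO.

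Few barcodes outside the gate held Foxp3. Among kept barcodes outside the gate, 0.843% held a Foxp3 UMI in WT (41 of 4861, median depth 8382 UMIs) and 0.729% in cKO (27 of 3702, median 8978.5), against 36.6% and 28.8% of gated T cells, whose median depths were 7606 and 7766.5 UMIs. After thinning every T cell to 1000 UMIs the expected shares were 13.6% and 9.57%, and after thinning to 2000 UMIs 22.1% and 16.1%, leaving out 4 and 2 shallower cells. Members and other T cells were of like depth, with medians of 7426 and 7717.5 UMIs in WT and 6997 and 8077.5 in cKO. Median mitochondrial shares of members were 2.51% and 3.09%. The libraries shared 22 barcodes, none of them a member. Doublets were not removed. A Scrublet ranking marked 8 WT members and 1 cKO member, and both Y-linked and Xist UMIs were present in 14 and 6 members.

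The label was checked against the other 4 markers, which the rule did not use, although they come from the same cells. Ctla4, the inhibitory receptor that competes for CD28 ligands, stood at 1499.5 CPM in members and 674 in other T cells of WT, and 1841 and 774 in cKO. Ikzf2 stood at 3147 CPM in members and 1334 in other T cells of WT, and 3076 and 1100.5 in cKO. Tnfrsf4, the costimulatory receptor OX40, stood at 844 CPM in members and 169 in other T cells of WT, and 686 and 139.8 in cKO. Tnfrsf18, the receptor GITR, stood at 458 CPM in members and 139 in other T cells of WT, and 326 and 106 in cKO. Each marker was higher in members in both libraries, by log2 1.15 to 2.32 in WT and 1.25 to 2.29 in cKO. Tnfrsf4 UMIs were present in 95.6% of WT and 94.5% of cKO members, 38.3% and 37.5% of other T cells, and 2.88% and 2.38% of barcodes outside the gate. Ctla4 was less selective, in 95.6% and 95.5% of members, 74.5% and 82.7% of other T cells and 13.7% and 16.6% outside the gate, as was Ikzf2, in 89.4% and 90.9%, 67.3% and 63.6%, and 26.0% and 26.7%. Tnfrsf18 was in 90.3% and 83.6% of members, 58.2% and 48.9% of other T cells and 3.56% and 4.59% outside. All 4 were thus higher in members by level and by share, although other T cells held them too.

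Cd4 was the more common co-receptor of members. Cd4, the co-receptor of helper and regulatory T cells, had a UMI in 57.5% of WT and 50.9% of cKO members, against 31.1% and 36.4% of other T cells and 1.36% and 1.46% outside the gate. Cd8a or Cd8b1, the chains of the cytotoxic co-receptor, had one in 5.31% and 0.909% of members and 18.4% and 20.6% of other T cells. Trdc, the constant chain of the gamma delta receptor, had one in 2 of 113 WT members and in 0 of 110 cKO members, which by the exact interval allows up to 3.30% of cells with a UMI and does not limit the cells that express the gene, against 18.9% and 18.0% of other T cells. The comparison group therefore mixes helper, cytotoxic and gamma delta cells. Each contrast below was thus also taken against the other T cells with a Cd4 UMI and none of Cd8a, Cd8b1 or Trdc. These 57 WT and 93 cKO cells are called Cd4-only other T cells. Cells that express Foxp3 but gave no UMI of it may lie in both comparison groups, and their number was not measured.

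Genes of other cell types were detected in members too. The 10 epithelial genes summed to 1886 CPM in WT and 1246 in cKO members, 2005 and 1649.6 in other T cells, and 11956 and 10106 outside the gate. None of the 10 was at 0, and Epcam, the epithelial adhesion molecule, had a UMI in 90.3% of WT and 68.2% of cKO members. In members, the macrophage and monocyte list summed to 283 and 397 CPM, the neutrophil list to 268 and 329.8, the B and plasma cell list to 238 and 271, and the 5 erythroid genes to 12.7 and 66.0. These lists hold 10 genes each unless said otherwise. The dendritic list summed to 406 and 528 CPM, but Flt3, Xcr1, Clec9a, Cd209a and Siglech were at 0 in members of both libraries. Ccr2 made up most of the macrophage sum of members, Il1r2 of the neutrophil sum and Ccr7 of the dendritic sum. Each of these genes is also on the homing or cytokine receptor list used below. The mast cell and basophil list summed to 141 and 102 with Mcpt8, Fcer1a and Cd200r3 at 0, and the fibroblast and endothelial list to 115 and 146 with Pdgfrb, Cdh5 and Kdr at 0. The natural killer and innate lymphoid list summed to 2951 and 3246 CPM against 1989 and 1988 in other T cells, and it holds Gata3, Areg and Il1rl1, which regulatory T cells also express. The part of such RNA in the contrasts below was not tested.

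Across the transcriptome, 3869 genes were considered, those at 50 CPM or more in members or other T cells of each library. Of these, 153 (3.95%) were at least 2-fold higher in members in both libraries, Foxp3 among them by selection, and 102 (2.64%) at least 2-fold lower. The median log2 ratio over all 3869 genes was near 0, at -0.01 in both libraries. Members were selected on Foxp3, so these ratios describe the selected cells and are not tested. Against the Cd4-only other T cells, 92 of the 153 higher genes kept a 2-fold difference in both libraries, Foxp3 again among them by selection. Of the 102 lower genes, 60 reached the level to be considered and 44 kept it.

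Leaving out Foxp3, on which members were selected, 17 regulators of the lineage were considered. Of these, 4 were 2-fold higher in members in both libraries (Ikzf2, Ikzf4, Gata3 and Rel) and 1 lower (Bach2), where 3.95% and 2.64% of all 3869 genes were. The list median was 0.42 in WT and 0.40 in cKO. Ikzf4, the Ikaros-family factor Eos that acts as a Foxp3 corepressor, stood at 193 CPM in members and 37.3 in other T cells of WT, and 179 and 45.6 in cKO. Gata3, which supports regulatory T cells at barrier sites as well as type 2 helper cells, stood at 368 CPM in members and 92.8 in other T cells of WT, and 323 and 79.5 in cKO. Gata3 had a UMI in 68.1% and 64.5% of members and 5.78% and 6.46% outside the gate, and its ratio was log2 1.99 in WT and 2.02 in cKO. Rel, the NF-kappaB subunit that drives Foxp3 induction, was higher by log2 1.35 in WT and 1.08 in cKO, and by 1.30 and 0.93 against Cd4-only other T cells. Bach2, a repressor that keeps T cells in a resting state, was lower, at 256 CPM in members and 669.9 in other T cells of WT, and 384 and 803 in cKO. Maf, which drives interleukin 10 in gut T cells, was higher by log2 0.80 in WT and 1.12 in cKO, but by only 0.13 and 0.67 against Cd4-only other T cells.

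Several surface receptors were higher in members. Of 9 TNF receptor family and signalling genes, 4 were 2-fold higher in both libraries (Tnfrsf4, Tnfrsf8, Tnfrsf9 and Tnfrsf18), and of 11 co-receptors 4 were (Ctla4, Cd83, Klrg1 and Tigit), with none 2-fold lower in both libraries. Over all 3869 genes, 3.95% were higher and 2.64% lower. The list medians were 0.78 in WT and 1.11 in cKO for the TNF receptor family and 0.85 in WT and 0.92 in cKO for the co-receptors. Tnfrsf9, the receptor 4-1BB that marks recently stimulated regulatory T cells, stood at 1898 CPM in members and 482 in other T cells of WT, and 1754 and 479 in cKO. Cd83, which stabilises activated lymphocytes, stood at 501 CPM in members and 134 in other T cells of WT, and 514 and 107 in cKO. Klrg1, an inhibitory lectin-like receptor of terminally differentiated cells, stood at 214 CPM in members and 12.3 in other T cells of WT, and 139.9 and 20.0 in cKO, the largest ratio of the 11 co-receptors in both libraries. The Ctla4 difference was smaller against Cd4-only other T cells, at log2 0.59 and 0.86, and lost the 2-fold mark.

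Of 14 cytokine receptors, Il2ra, Il1rl1 and Il6st were 2-fold higher in both libraries and Tgfbr2 lower, where 3.95% and 2.64% of all 3869 genes were. The list median was 0.40 in WT and 0.35 in cKO. Il2ra, the high-affinity chain of the interleukin 2 receptor, stood at 977 CPM in members and 306 in other T cells of WT, and 768 and 302 in cKO. Il1rl1, which encodes the interleukin 33 receptor ST2, stood at 397 CPM in members and 62.4 in other T cells of WT, and 348 and 53.5 in cKO. Il1rl1 UMIs were present in 52.2% of WT and 44.5% of cKO members, 8.16% and 8.09% of other T cells and 3.83% and 3.32% outside the gate, and was thus far more often detected in members than in other T cells of like depth. Tgfbr2, the TGF-beta receptor chain, was lower, at log2 -1.10 in WT and -1.27 in cKO.

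Among 10 suppressor molecules, Il10, Itgb8, Lrrc32 and Penk were 2-fold higher in members of both libraries, where 3.95% of all 3869 genes were. The list median was 0.76 in WT and 0.87 in cKO. Il10 stood at 166 CPM in members and 18.7 in other T cells of WT, and 148 and 6.03 in cKO. It was carried by 24 of 113 WT and 31 of 110 cKO members, and 1 WT cell held 41 of its 157 UMIs. Itgb8, the integrin chain that frees TGF-beta from its latent complex, stood at 339 CPM in members and 50.1 in other T cells of WT, and 272 and 47.9 in cKO. Lrrc32, the receptor GARP that docks latent TGF-beta, was higher by log2 3.09 in WT and 2.33 in cKO. Penk, which encodes the enkephalin precursor, was higher by log2 1.48 in WT and 2.18 in cKO, but by 0.07 against Cd4-only other T cells of WT. Areg, an epidermal growth factor receptor ligand of tissue repair, stood at 1482 CPM in members and 1025 in other T cells of WT, and 1710.5 and 1055 in cKO, below the 2-fold mark. Tgfb1 was level with other T cells in WT (log2 -0.03, -0.25 to 0.18) and higher in cKO (0.58, 0.40 to 0.75).

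Of 15 homing receptors, 6 were 2-fold higher in both libraries, namely Ccr2, Ccr4, Ccr6, Ccr9, Itga4 and Itgae, and none lower, where 3.95% and 2.64% of all 3869 genes were. The list median was 1.05 in WT and 0.94 in cKO. Itgae, the integrin chain CD103 that binds epithelial E-cadherin, stood at 247 CPM in members and 79.5 in other T cells of WT, and 233 and 80.7 in cKO. Ccr6, the receptor for Ccl20, stood at 79.4 CPM in members and 16.5 in other T cells of WT, and 103 and 25.6 in cKO. Ccr4 was higher by log2 1.60 in WT and 2.55 in cKO. Ccr8, a receptor known from tumour-infiltrating regulatory T cells, had a UMI in 23.0% and 21.8% of members, 5.10% and 3.31% of other T cells, and 0.206% and 0.108% outside the gate. Its summed level in members was 34.9 and 36.4 CPM, under the 50 CPM asked for.

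The 15 genes with the largest ratios towards members were, after Foxp3 itself, Ky, Dscaml1, Il10, Ankrd55, Rnf152, Izumo1r, Klrg1, Myo3b, Ednrb, Il1rl1, Itgb8, Ttn, Frmd5 and Tff1. Ky, best known as a muscle peptidase gene, stood at 188 CPM in members and 8.0 in other T cells of WT, and 265 and 22.2 in cKO, in 55 and 57 members. Izumo1r, which encodes folate receptor 4, stood at 106 CPM in members and 12.8 in other T cells of WT, and 135 and 19.2 in cKO. Both were spread over about as many WT as cKO members. Dscaml1, an immunoglobulin-family adhesion gene, stood at 176 CPM in members and 7.47 in other T cells of WT, and 71.6 and 7.16 in cKO. Myo3b, a class III myosin gene, stood at 428 CPM in members and 34.7 in other T cells of WT, and 334 and 49.4 in cKO. Frmd5, a FERM-domain gene, stood at 1055 CPM in members and 159 in other T cells of WT, and 1196 and 219 in cKO, with its UMIs in 47 of 113 and 47 of 110 members. Tff1, a secreted trefoil peptide of mucosa, stood at 302 CPM in members and 46.4 in other T cells of WT, and 201 and 36.9 in cKO, and at 0.168 and 0.224 CPM outside the gate, where epithelial barcodes lie. Apart from Foxp3, which Cd4-only other T cells lack by definition, all of these genes kept a 2-fold difference against those cells in both libraries.

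**Figure D2:**
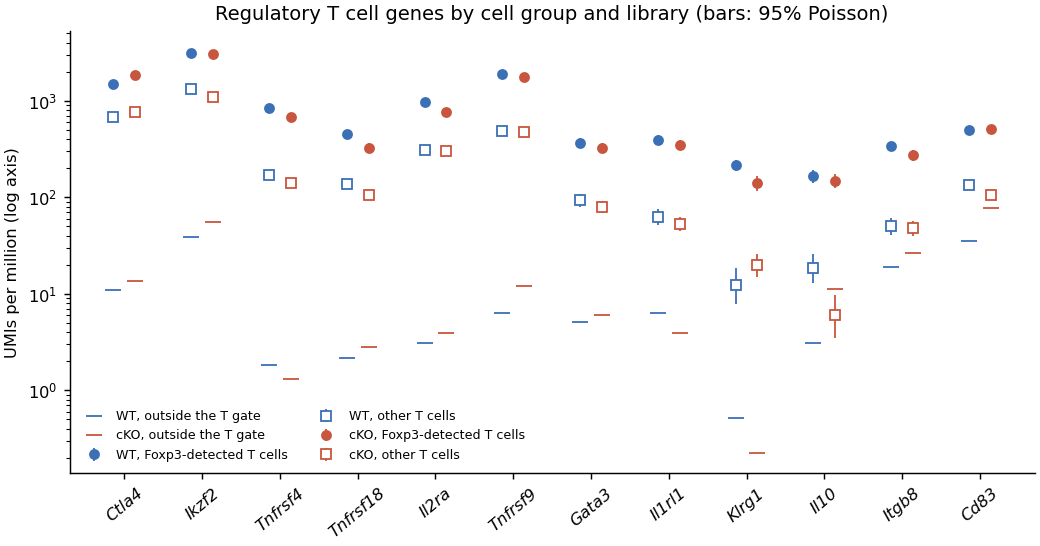
Levels in CPM (log axis) of 12 regulatory T cell genes in members (filled circles), other T cells (open squares) and barcodes outside the T gate (dashes) of WT and cKO, with 95% Poisson bars. The 12 were picked from list genes at least 2-fold higher in members of both libraries, so members lie above other T cells by that choice. Klrg1, for example, stood at 214 against 12.3 CPM in WT.

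Markers of other T cell lineages were among the genes lower in members. Of 8 cytotoxic genes 7 were 2-fold lower in both libraries, and of 7 gamma delta genes 6 were, including Trdc, Blk and Cd163l1, where 2.64% of all 3869 genes were. Both lists were read in cells selected on Foxp3. Several of their genes, such as Cd8a, Klrd1, Klrk1, Blk and Cd163l1, reached 50 CPM only in other T cells. For these the filter itself favoured a lower call, so the counts are a description and no support for the label. The 15 genes with the largest ratios in this direction were Bend4, Cd163l1, Zbtb16, Cd8a, Il17a, Il22, Atp8b4, Klrd1, Abi3bp, Klrk1, Cd7, Pde3b, Blk, Xcl1 and Il12rb2. Il17a, the cytokine of Th17 and gamma delta cells, stood at 10.6 CPM in members and 557 in other T cells of WT, and 18.2 and 468 in cKO. It was in 1 WT and 5 cKO members, and in 46 and 57 other T cells. Il22, a cytokine of epithelial defence, stood at 246 and 127 CPM in other T cells, had 12 UMIs in 2 WT members, and had 0 UMIs in cKO members, at least 37.1-fold lower with a floor of 3 counts over the group. Pde3b, a cyclic nucleotide phosphodiesterase known to be repressed by Foxp3, stood at 50.8 CPM in members and 533 in other T cells of WT, and 66.0 and 643 in cKO, and it was lower against Cd4-only other T cells too, at log2 -3.28 and -3.37. Il12rb2, a chain of the interleukin 12 receptor, was lower, at log2 -2.79 in WT and -3.33 in cKO, and at -3.46 and -3.22 against Cd4-only cells. Bcl2, the survival factor, was lower too, at 36.0 CPM in members and 385 in other T cells of WT, and 191 and 421 in cKO.

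For several of these the contrast depended on who the other T cells were. Against Cd4-only other T cells, Xcl1, a chemokine of cytotoxic cells, turned to log2 0.60 in WT and 3.42 in cKO, and Blk, a Src-family kinase of gamma delta T cells, to 0.97 and 2.07. Members held 3 and 16 UMIs of Xcl1 and 1 and 6 of Blk, so these values rest on few counts. Zbtb16 turned to 0.97 in WT, on 4 UMIs of 1 member, and Cd7 to 0.63 in cKO. The plot of both libraries shows the named genes at the ends of one diagonal cloud.

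**Figure D3:**
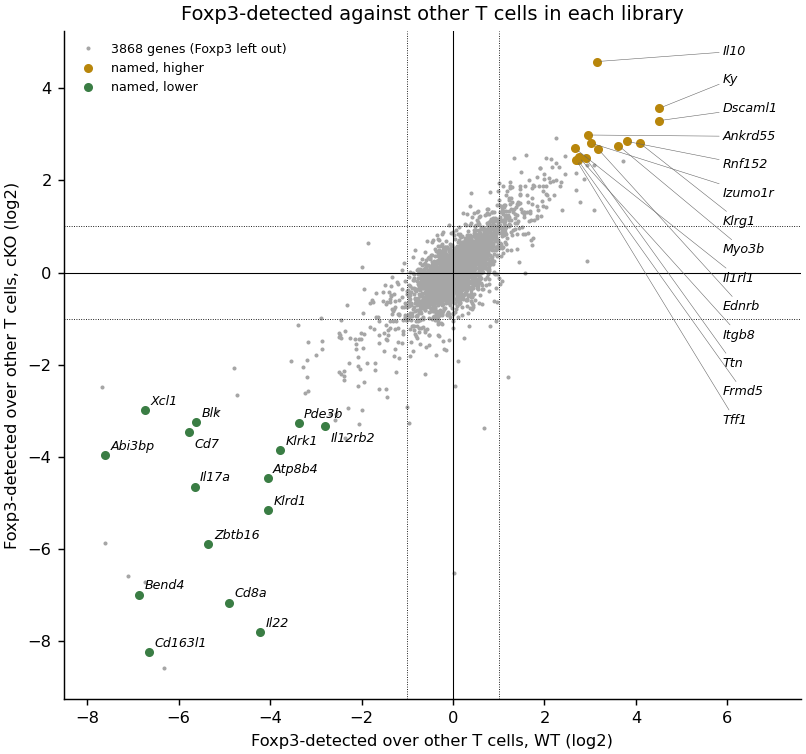
Log2 ratio of members over other T cells in WT (x axis) and cKO (y axis) for the considered genes, each point 1 gene, with dotted lines at 2-fold and named genes coloured. Foxp3 is left out because it defines the members; genes with 0 UMIs in a group, such as Bend4 in members of both libraries, are placed by the 0.5 counts added.

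Lists for metabolism, iron and early response differed little from other T cells. Of 14 glycolysis and hypoxia genes none was 2-fold apart in both libraries (median -0.02 in WT and 0.09 in cKO). Of 20 early response genes, which trypsin dissociation can induce, 1 was lower (Btg2), where 2.64% of all 3869 genes were. Of 13 interferon-induced genes 3 were higher, Ifi27l2a and Iigp1 among them, where 3.95% of all 3869 genes were. The list median was 0.76 in WT and 0.71 in cKO. Iigp1, an interferon-induced GTPase gene, stood at 152 CPM in members and 32.0 in other T cells of WT, and 69.4 and 9.04 in cKO. Of 9 iron and ferroptosis genes, which the study's title concerns, none was 2-fold apart (median -0.14 in WT and -0.21 in cKO). Mki67 or Top2a, proliferation genes, had a UMI in 42.5% and 40.9% of members, but also in 44.9% and 38.7% of barcodes outside the gate.

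Members were not uniform. A UMI of Il1rl1 or Klrg1 was present in 76 of 113 WT members (67.3%) and 59 of 110 cKO members (53.6%), and these were set against the members with neither (37 and 51 cells), a split chosen after seeing the data. The 4 groups had like depths, with medians of 7337.5 and 7463 UMIs in WT and 6965 and 7013 in cKO. Of 3699 considered genes, 35 (0.946%) were at least 2-fold higher in the Il1rl1 or Klrg1 cells of both libraries, among them the 2 genes that define the split, and 16 (0.433%) were at least 2-fold lower. Without the single cell richest in each gene, 29 of the 35 and 11 of the 16 kept it.

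The Il1rl1 or Klrg1 cells carried more Helios and more proenkephalin. Ikzf2 stood at 3904 against 1389 CPM in WT and 3705 against 2305 in cKO (log2 1.49 and 0.68). Gata3 stood at 440.5 against 200.5 CPM in WT and 398 against 230.5 in cKO (log2 1.13 and 0.79). Penk stood at 598 against 165 CPM in WT and 629.5 against 132 in cKO, and Pcsk1, which encodes a prohormone convertase, at 98.4 against 21.1 CPM in WT and 144 against 45.6 in cKO. Penk UMIs were in 39 of the 76 and 4 of the 37 WT cells, and in 23 of the 59 and 6 of the 51 cKO cells. Tmtc2, a transmembrane protein gene, stood at 495 against 148 CPM in WT and 439.6 against 111 in cKO. The other named genes on this side were Tmem163, Robo1, Shb, Mki67, Diaph3, Mbnl3, Zfyve16, Ccdc148, Cdh13 and Rbms3. Of these, Mki67, Cdh13 and Rbms3 leaned on 1 cKO cell each, without which their cKO ratios were 0.77, -0.35 and -0.63.

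Il10 was higher in the members with neither gene. Il10 stood at 56.0 against 422 CPM in WT and 55.7 against 261 in cKO, with log2 ratios of -2.90 (-3.49 to -2.37) and -2.21 (-2.90 to -1.60). Its UMIs were in 10 of 76 against 14 of 37 WT cells, and in 9 of 59 against 22 of 51 cKO cells. Myo3b stood at 136 against 1104 CPM in WT and 182 against 522 in cKO. Maf stood at 528 against 1171 CPM in WT and 656 against 894 in cKO, past 2-fold in WT only (log2 -1.15 and -0.45). The chemokine receptors Ccr6 and Ccr9 were lower in the Il1rl1 or Klrg1 cells, Ccr6 at 46.9 against 155 CPM in WT and 66.1 against 149 in cKO and Ccr9 at 46.9 against 98.5 CPM in WT and 86.7 against 192 in cKO. Bach2 stood at 194 against 401 CPM in WT and 252 against 547 in cKO. Aff3, a nuclear protein gene, had 1 UMI in the Il1rl1 or Klrg1 cells and 40 in the others in WT (log2 -5.97, -11.88 to -3.98), and stood at 22.7 against 127 CPM in cKO. The interferon-induced genes Isg15 and Ifit1, with St6gal1, Trib2, Acss2, Bicdl1, Ndufaf2 and Olfr60, completed the named genes. Foxp3 was about equal on both sides, at 478 against 387 CPM in WT and 365 against 393 in cKO, and Ctla4 was slightly lower in the Il1rl1 or Klrg1 cells, at 1369.9 against 1801 CPM in WT and 1690.5 against 2026 in cKO.

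**Figure D4:**
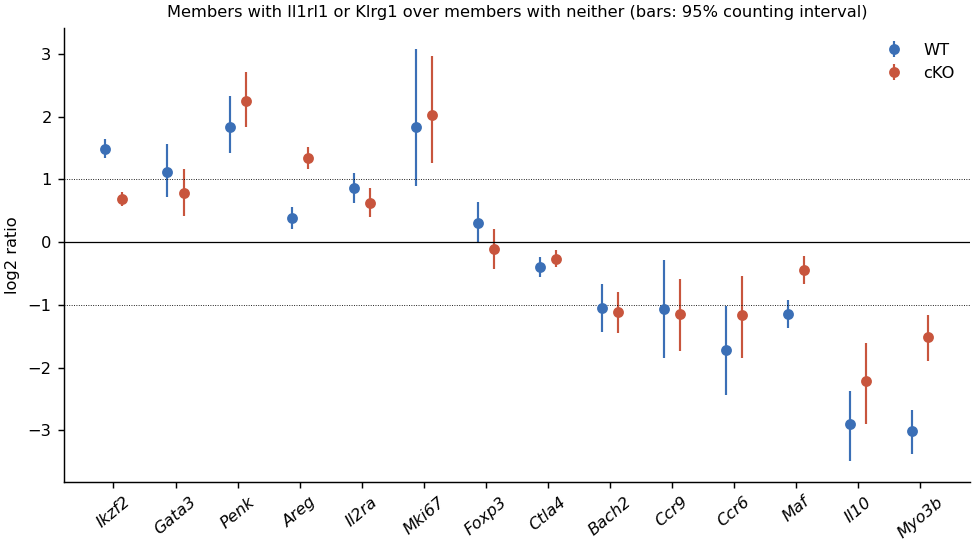
Log2 ratio of members with Il1rl1 or Klrg1 over members with neither, for 14 genes in WT and cKO, with 95% counting intervals and dotted lines at 2-fold. Penk, Ikzf2 and Gata3 lie above 0 and Il10, Myo3b, Ccr6, Ccr9 and Bach2 below 0 in both libraries, Il10 at -2.90 and -2.21.

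The number of Foxp3 UMIs went with small differences in some markers and larger ones in others. Tnfrsf4 stood at 934 and 599.6 CPM in members with 1 Foxp3 UMI and at 823 and 717 in those with 2 or more, against 169 and 139.8 in other T cells. Members admitted on 1 UMI thus lay near the other members for this gene. Ctla4 stood at 1034 CPM in WT members with 1 Foxp3 UMI and 1609.8 in those with more, and at 1705 and 1891 in cKO. Il2ra stood at 951 and 983 CPM in WT, and at 417 and 896 in cKO, against 306 and 302 in other T cells. For Il2ra in cKO, members with 1 Foxp3 UMI thus lay nearer other T cells than the other members. Median depths were 5997.5 and 8042 UMIs in WT and 6793.5 and 7005.5 in cKO.

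Between the libraries, members made up 36.6% of gated T cells in WT (113 of 309, 31.2% to 42.2%) and 28.8% in cKO (110 of 382, 24.3% to 33.6%), a difference of -7.77 percentage points (-14.98 to -0.55). Of all kept barcodes, members were 2.19% in WT and 2.69% in cKO, since gated T cells were 5.98% and 9.35%. Without cells carrying Cd8a, Cd8b1 or Trdc the shares were 45.5% and 38.9% (difference -6.53, -15.3 to 2.34). The pools also differed in sex. By Y-linked and Xist UMIs, 50 WT members were assigned male and 42 female, against 83 and 15 in cKO, and 67 and 90 other T cells of WT against 197 and 31 of cKO. In cells assigned male the share was 42.7% in WT and 29.6% in cKO (difference -13.1, -23.9 to -2.34), and in cells assigned female 31.8% and 32.6% (0.79, -14.9 to 18.1). The lower share in cKO was thus seen in cells assigned male, while the interval for cells assigned female covers both signs. Sex and genotype differ together between the pools, and no spread between mice was measured.

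None of the 5 markers was 2-fold apart between members of the 2 libraries. In members, 4024 genes reached 50 CPM in either library. Of these, 38 (0.944%) were at least 2-fold higher in cKO and 43 (1.07%) at least 2-fold lower, and 50.2% of the 4024 lay above 0. Ctla4 was higher in cKO, at 1841 against 1499.5 CPM (log2 0.30, 0.19 to 0.40), with 0.05 (-0.09 to 0.19) in cells assigned male and 0.60 in cells assigned female. Foxp3 was lower, at 378 against 451 CPM (log2 -0.26, -0.47 to -0.05). Members were selected on Foxp3, so this value only describes the selected cells, and its interval does not allow for the selection. Ikzf2 differed by log2 -0.03, Tnfrsf4 by -0.30 and Tnfrsf18 by -0.49. Of the 5, 4 were lower in cKO, Foxp3 among them, and 1 higher, where 2002 of all 4024 considered genes were lower. Other T cells showed nearly the same values for Tnfrsf4 (-0.27), Tnfrsf18 (-0.38) and Ctla4 (0.20).

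Genes of resting and central memory T cells were higher in cKO members. Of 9 considered genes of that list 8 lay above 0, as did 50.2% of all 4024 genes. Bcl2 and Lef1 were past 2-fold, where 0.944% of all considered genes were. The list median was log2 0.58 against 0.00 for all 4024 genes. In other T cells 8 of the same 9 genes lay above 0 too, with a median of 0.13, and outside the gate the median was 0.67. Bcl2 (chromosome 1, 106538178 to 106714274, minus strand) had UMIs in 14 WT and 35 cKO members. Its levels were 36.0 CPM (24.9 to 50.3) in WT and 191 (163 to 222) in cKO, and the log2 ratio was 2.39 (1.87 to 2.99). In other T cells Bcl2 was 385 and 421 CPM, above the members of both libraries. Lef1, a transcription factor of naive and memory cells, stood at 66.7 and 136 CPM (log2 1.03), in 28 and 42 cells. Klf2, which promotes tissue exit, stood at 603 and 996 (log2 0.72, and 0.51 in other T cells). S1pr1, the exit receptor that Klf2 induces, was higher by 0.89, and Satb1, a chromatin organiser, by 0.57. Ccr7, a lymph node homing receptor, differed by 0.58 in all members, by 1.28 in cells assigned male and by -0.11 (-0.65 to 0.39) in cells assigned female. Klf2 was 0.22 in cells assigned male and 1.79 in cells assigned female. Bach2, from the list of regulators, differed by 0.59 in all members and 0.26 in other T cells, but by 0.28 (-0.06 to 0.65) in members assigned male and -0.22 (-0.89 to 0.37) in those assigned female. Cells assigned male alone gave a list median of 0.51 and cells assigned female alone 0.67.

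Of 15 homing receptors, 12 lay above 0 in cKO members, where 50.2% of all 4024 considered genes did. Their median was 0.17, against 9 of 15 and 0.07 in other T cells and a median of 0.90 outside the gate. Ccr9, the receptor for the small-intestinal chemokine Ccl25, stood at 62.4 CPM in WT and 134 in cKO, in 26 and 27 cells (log2 1.10, 0.64 to 1.58). It was 0.91 in cells assigned male and -0.10 (-1.77 to 1.15) in cells assigned female. Without the richest cell of each library the ratio was 0.98, just under 2-fold, and the annotated span of Ccr9 overlaps Lztfl1 and Slc6a20a. Ccr2, a receptor of inflammatory recruitment, stood at 205 and 298 CPM (log2 0.54). The macrophage list summed to 283 CPM in WT and 397 in cKO members over 10 genes, but Ccr2 itself made up most of both sums. The part of macrophage RNA in the result was not tested.

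Suppressor molecules were split, 5 of 11 above 0 and 6 below (median -0.07). Tgfb1 stood at 291 CPM in WT and 469 in cKO members (log2 0.69, 0.46 to 0.91), against 0.08 in other T cells. Nt5e, the enzyme CD73 that makes adenosine, stood at 353 and 530.0 (log2 0.58, 0.38 to 0.79). Tgfb1 was higher in cKO in cells assigned male (0.54) and female (0.93). Nt5e was higher in cells assigned female (0.72), but its interval in cells assigned male covered 0 (0.11, -0.14 to 0.37). Itgb8 was lower, at log2 -0.32. Il10 differed by -0.17 (-0.51 to 0.18) in all members, by -1.05 in cells assigned male and by 0.81 (-0.09 to 1.63) in cells assigned female. Klrg1 was lower in cKO, at 139.9 against 214 CPM (log2 -0.61, -0.95 to -0.28), in 38.2% against 54.0% of members, but its log2 ratios were -0.23 and 0.02 in cells assigned male and female. Il2ra was lower too (log2 -0.35, -0.49 to -0.20), at -0.44 and -0.65 within the sexes.

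The 10 largest ratios towards cKO were those of Vmn2r96, Pde7b, Bcl2, Casc4, Akap12, Abcb1b, Plagl1, Olfr60, Ermn and Trpv2. Pde7b, a cyclic AMP phosphodiesterase gene, stood at 26.5 CPM in 7 WT cells and 165 in 25 cKO cells (log2 2.62, 2.02 to 3.31), and differed by 0.13 in other T cells. Pde7b was higher in cKO in cells assigned male (4.10) and female (2.82). Bcl2 was higher in cells assigned male (3.02), but its interval in cells assigned female covered 0 (0.87, -0.51 to 2.08). Vmn2r96, which bears the name of a vomeronasal receptor, had 6 UMIs in WT and 49 in cKO members, and was higher in other T cells too (1.64). Abcb1b, a drug efflux pump gene, stood at 44.4 and 136 CPM, but 54 of its 120 cKO UMIs were in 1 cell. Plagl1, an imprinted zinc finger gene, stood at 28.6 and 87.6 CPM, and Trpv2, a cation channel gene, at 20.1 and 52.3. Akap12, a kinase anchor gene, took 31 of its 63 cKO UMIs from 1 cell and was -1.62 (-7.55 to 0.55) in cells assigned female.

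The 10 largest ratios towards WT were those of Ifng, Ccl20, Srgap3, Nrn1, Neto2, Tnip3, Syne1, Il15ra, Cxcl10 and Dscaml1. Some rested on single cells. Ifng, the type 1 effector cytokine, had 128 UMIs in 2 WT members, 127 of them in 1 cell, and 0 UMIs in cKO members, at least 39.7-fold lower with a floor of 3 counts over the group. Syne1 and Il15ra had 34 of 63 and 32 of 60 WT UMIs in 1 cell, and without it their ratios were -0.49 and -0.69. Tnip3, an inhibitor of NF-kappaB signalling, was broader, at 226 CPM in 37 WT cells and 71.6 in 27 cKO cells (log2 -1.65, -2.09 to -1.25). Tnip3 went the other way in other T cells (1.03). Within members it was -2.42 in cells assigned male and 0.72 (-0.57 to 1.83) in cells assigned female. Outside the gate it stood at 127 and 131 CPM, above the cKO members. Dscaml1 stood at 176 CPM in 39 WT cells and 71.6 in 19 cKO cells (log2 -1.29). It was -1.62 in cells assigned male and 0.10 (-0.76 to 0.83) in cells assigned female. Nrn1, the neuritin gene, stood at 66.7 and 19.3 CPM (log2 -1.76). It was -1.90 in cells assigned male and 1.75 (-1.15 to 4.65) in cells assigned female. Srgap3, a GTPase-activating protein gene, and Neto2, a receptor accessory gene, stood at 61.4 and 51.9 CPM in WT and at 15.9 and 15.9 in cKO, as the plot of cKO against WT levels shows.

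**Figure D5:**
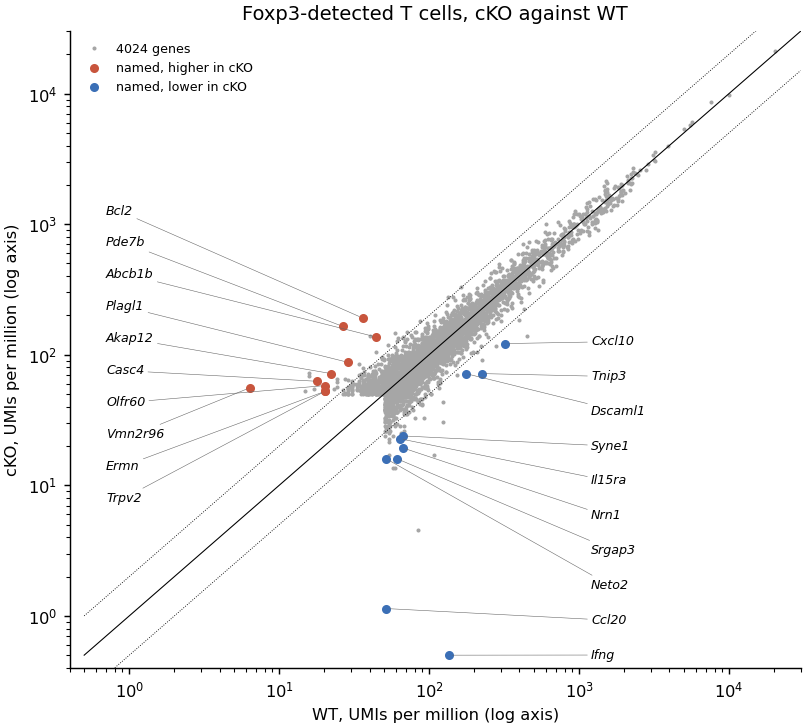
Level in members of WT (x axis) and cKO (y axis), in CPM on log axes, for 4024 genes, each point 1 gene, with the line of equality, dotted lines at 2-fold and the 20 named genes coloured. Ifng, with 0 UMIs in cKO, is drawn at 0.5 CPM, and most genes lie between the dotted lines.

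Ccl20, Cxcl10 and 11 of 15 interferon-induced genes were lower in cKO members, where 2002 of all 4024 considered genes were lower. Of the 15, only Iigp1 was past 2-fold. In other T cells Ccl20, Cxcl10 and 10 of the 15 were lower. Ccl20, the ligand of Ccr6, had 49 UMIs in 4 WT members and 1 in 1 cKO member (log2 -4.94, -10.84 to -2.97), with -4.63 in other T cells. Cxcl10, an interferon-induced chemokine, stood at 323 and 122 CPM (log2 -1.40, -1.74 to -1.08), with -1.04 in other T cells. Both sexes gave a lower Cxcl10, at -1.31 and -1.73. The 15 interferon-induced genes had a median of -0.33 in members, -0.28 in other T cells and -0.20 outside the gate. Iigp1 stood at 152 and 69.4 CPM (log2 -1.13, -1.59 to -0.69). Iigp1 was -1.15 in cells assigned male and -2.84 in cells assigned female.

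A difference in the gene that the study deletes in epithelium was not detectable in members at this depth. Mtch2, a protein of the outer mitochondrial membrane, stood at 49.7 CPM in WT (47 UMIs in 35 cells) and 45.5 in cKO (40 UMIs in 33 cells), log2 -0.13 (-0.77 to 0.51). Outside the gate, where the epithelial cells are, it stood at 89.8 and 27.0 CPM. Tfrc, the transferrin receptor named in the study's title, stood at 56.1 and 39.8 CPM in members (log2 -0.49, -1.15 to 0.15), and E2f4, the transcription factor named there, at 37.0 and 35.3 (log2 -0.07, -0.82 to 0.67). Of 10 considered iron and ferroptosis genes 8 lay below 0, as did 2002 of all 4024 considered genes. None of the 10 was 2-fold apart, and their median was -0.12. These 3 genes rest on 31 to 53 UMIs per library.

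Epithelial RNA in members differed between the libraries. Of 10 epithelial genes 8 were lower in cKO members, where 2002 of all 4024 considered genes were lower. Their median was -0.62, with -0.34 in members assigned male and -1.34 in those assigned female. It was -0.23 both in other T cells and outside the gate. Epcam stood at 302 and 181 CPM (log2 -0.74, -1.03 to -0.45). The part of epithelial RNA in the differences above was not tested. Of 5 considered replication genes 4 lay below 0, as did 2002 of all 4024 considered genes. Their median was -0.57, and -0.37 in other T cells, but it was -0.17 in members assigned male and -0.23 in those assigned female. The gene past 2-fold was Dut, which cleans the nucleotide pool of dUTP, at 80.4 and 33.0 CPM (log2 -1.27). Of 20 early response genes 10 lay above and 10 below 0.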

How the data were processed

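Single-cell RNA counts were deposited as 1 matrix of UMI counts per gene and barcode for each of the 2 libraries, which the authors made in Cell Ranger 7.2.0 (per the file headers). Seurat 3.0 and mm10 are named per the submitters' processing notes. Neither source states the authors' barcode filters or whether intronic or antisense reads were counted. There were 9445 WT and 6723 cKO barcodes with 116066712 and 97364087 UMIs in all. Members held 944978 and 879296 UMIs, with 3084 to 33764 per cell in WT.

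UMIs were summed over the cells of a group in each library and scaled to CPM. Levels have exact Poisson, shares Clopper-Pearson and ratios exact conditional binomial intervals, all for counting error only. A gene was called at 2-fold. Members against other T cells, and the split within members chosen after seeing the data, needed it in both libraries. For both, the text names up to 15 genes each way with the largest ratios by the smaller of the libraries, and for cKO over WT the 10 largest each way. Named genes had an interval excluding 0 and a level in the higher group of at least that outside the gate. Mitochondrial, ribosomal protein, receptor, immunoglobulin, haemoglobin, sex-linked marker and unnamed genes were not named, while members of the 26 gene lists could be. Members and lists were chosen with earlier results of these data known.

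Scrublet, as run in scanpy 1.11.5, ranked doublets at 0.8% per 1000 barcodes, and these were removed as an alternative only. Further alternatives were a stricter gate, depth and mitochondrial limits, sex-assigned cells, thinning, other comparison cells, scalings and CPM minimums, and, chosen after seeing the data, leaving out the cell with the most UMIs of a gene. With 1 library per genotype no library could be left out. Coordinates are from GENCODE mouse release 21 of the files' build, matched by identifier for 32158 of 32285 genes. Scripts ran on Python 3.11.15, numpy 2.4.6, scipy 1.17.1, pandas 2.3.3 and matplotlib 3.10.9 and were tested on simulated data.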

Additional observations from a re-analysis of the deposited data

Results flagged for a closer look

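Foxp3 UMIs also appeared in barcodes that no comparison used. Among kept barcodes outside the T cell gate, 41 in WT and 27 in cKO held at least 1, and 4 and 4 of them held 2 or more. Of these barcodes, 34 and 20 had under 3 UMIs of the T cell genes, 6 and 4 had too low a rate of them, and 1 and 3 exceeded the limit on Cd79a and Lyz2. Their median depths were 37595 and 22667 UMIs, against 7426 and 6997 in members.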

How the results depend on the processing

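No paired analysis was possible because each genotype is 1 library. Shares of T cells with Foxp3, 36.6% in WT and 28.8% in cKO, were 30.7% and 22.7% when 2 Foxp3 UMIs were asked for, 45.5% and 38.9% without cells with Cd8a, Cd8b1 or Trdc, 13.6% and 9.57% thinned to 1000 UMIs, 22.1% and 16.1% thinned to 2000, and 42.7% in cells assigned male of WT. The counts of genes depended on the CPM minimum. Genes higher in members numbered 98 at 100 CPM in place of 153, and genes lower in members 182 at 20 CPM and 51 at 100 CPM in place of 102. Genes higher in cKO, 38 at 50 CPM, numbered 172 at 20 CPM, 15 at 100 CPM, 115 in cells assigned male and 457 in cells assigned female. Genes lower in cKO, 43 at 50 CPM, numbered 229, 15, 102 and 384 under the same settings, and 77 when members needed 2 Foxp3 UMIs.

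Of 45 list medians, 503 of 589 values kept their direction and size, and 7 took the opposite sign: co-receptors -0.0048 (cKO over WT, without doublets), cytokine receptors -0.0060 (cKO over WT, 20 CPM), resting genes 0.032 (members over other T cells, WT, at 20 and at 100 CPM), and in cells assigned female iron genes 0.044 (cKO), early response genes -0.066 (WT) and glycolysis genes 0.10 (cKO over WT). Of 94 gene ratios, 17 of 1384 values took the opposite sign. Against Cd4-only other T cells these were Xcl1 (0.60 in WT, 3.42 in cKO), Blk (0.97, 2.07), Cd8a (1.70 in WT), Zbtb16 (0.97 in WT), Cd7 (0.63 in cKO) and Abi3bp (1.18 in cKO). Without cells with Cd8a, Cd8b1 or Trdc, Cd8a was 0.36 and 0.82 by construction. The Cd8a value against Cd4-only other T cells came by construction too, since those cells hold no Cd8a UMI. In cells assigned female they were Il22 (1.52, members over other T cells of cKO), Tnip3 (0.72), Dscaml1 (0.10), Akap12 (-1.62), Ifng (0.17) and Nrn1 (1.75). In cells assigned male it was Il15ra (0.021, -1.36 to 1.63). The intervals of Tnip3 (-0.57 to 1.83), Dscaml1 (-0.76 to 0.83), Akap12 (-7.55 to 0.55) and Nrn1 (-1.15 to 4.65) cover 0. Ifng stood at 2.76 CPM in WT and 0 in cKO members assigned female, so its sign comes from the 0.5 counts added. Only 15 cKO members were assigned female. For the rest the cause was not tested. Genes under 50 CPM rest on fewer than 50 UMIs in a library's members, which limits what these 223 cells can show.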
